A study of Mus musculus with 54 samples.

Results

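The genes described here are 9 genes of the myelin sheath and of mature oligodendrocytes, Mbp, Mog, Mag, Mobp, Cnp, Cldn11, Mal, Opalin and Ermn, chosen by gene symbol among the 54232 genes counted in each library. Each of the 9 symbols matched 1 Ensembl gene, and all 9 passed the filter on low counts in every fit. Their RNA was followed in 32 libraries of mouse brain, from male mice of the BL6 background, of which 12 came from mice aged 20 months and 20 from mice aged 6 to 7 months. Mice received daily intraperitoneal injections for 14 days of either vehicle, a mixture of DMSO, PEG400 and saline, or 22.5 mg/kg of Cmpd60, an inhibitor of the histone deacetylases HDAC1 and HDAC2. The 20-month mice carried no transgene and fell into 6 vehicle and 6 Cmpd60 mice. The mice aged 6 to 7 months were APPSWE-1349 transgenic mice (6 vehicle, 4 Cmpd60), which carry a transgene for human amyloid precursor protein with the Swedish mutation, and their control littermates (5 vehicle, 5 Cmpd60). The promoter of the transgene is not given in the sources used here. The brain regions dissected are not given either. The libraries were sequenced from whole-tissue RNA, in which fewer oligodendrocytes and less RNA per oligodendrocyte cannot be told apart. The sources do not tie each library to a separate mouse beyond its own number, so that p-values measure the spread between libraries.

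Oligodendrocytes wrap axons of the central nervous system with myelin, a stack of lipid-rich membrane that speeds conduction and supports the axon. Mbp, the myelin basic protein, and Mobp are small basic proteins on the cytoplasmic face of compact myelin, and Cldn11, a claudin, forms the tight junctions between its layers. Mal is a proteolipid of membrane rafts, Cnp is a phosphodiesterase of the non-compact cytoplasmic channels, Mag is an adhesion molecule facing the axon, and Mog lies on the outermost layer. Opalin and Ermn (ermin) are a membrane glycoprotein and an actin-binding protein that mark late, mature oligodendrocytes. The transcription factors Olig2, Sox10 and Myrf direct the maturation of precursors into these cells, and HDAC1 and HDAC2 are known to be needed for that step in the developing brain.

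Promoter sequences of 8 of the 9 genes were available from RefSeq (mouse build GRCm38.p6), as 300 bases from 250 before to 50 after each start, with 3 windows for Mag, 2 of which overlap. Printed here, 5′ to 3′ on the strand of the gene, are Mobp and Cnp, on which the comparison of treated APPSWE brains turns, and Mog and Opalin, which followed the other genes most and least closely in the 20-month brains; these 4 were picked after their values were seen. Capitals mark 3 short motifs searched on both strands, ACAAAG, a core bound by SOX proteins such as Sox10, CTGGNAC, a core bound by Myrf, and CAGCTG, an E-box of the kind bound by Olig2. No matches of different motifs overlapped in these promoters.
Mobp, chr9:120149492-120149791, + strand: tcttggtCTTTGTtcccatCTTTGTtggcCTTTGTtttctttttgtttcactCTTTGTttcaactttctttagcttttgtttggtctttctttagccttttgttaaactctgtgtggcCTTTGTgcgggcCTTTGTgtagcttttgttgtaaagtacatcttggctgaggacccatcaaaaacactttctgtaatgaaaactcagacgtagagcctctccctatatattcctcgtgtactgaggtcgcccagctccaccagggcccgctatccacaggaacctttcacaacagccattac
Cnp, chr11:100574689-100574988, + strand: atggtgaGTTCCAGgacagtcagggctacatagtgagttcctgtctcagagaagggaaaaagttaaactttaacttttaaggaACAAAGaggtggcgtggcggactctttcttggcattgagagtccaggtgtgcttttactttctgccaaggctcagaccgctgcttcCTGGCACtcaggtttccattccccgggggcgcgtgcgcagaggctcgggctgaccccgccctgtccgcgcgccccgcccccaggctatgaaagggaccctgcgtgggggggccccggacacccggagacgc
Mog, chr17:37023349-37023648, - strand: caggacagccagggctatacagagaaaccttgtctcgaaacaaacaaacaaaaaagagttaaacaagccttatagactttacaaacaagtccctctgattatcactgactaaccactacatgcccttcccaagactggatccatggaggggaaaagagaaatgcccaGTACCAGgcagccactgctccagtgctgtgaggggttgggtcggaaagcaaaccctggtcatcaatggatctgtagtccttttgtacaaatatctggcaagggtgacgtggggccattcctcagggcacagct
Opalin, chr19:41077064-41077363, - strand: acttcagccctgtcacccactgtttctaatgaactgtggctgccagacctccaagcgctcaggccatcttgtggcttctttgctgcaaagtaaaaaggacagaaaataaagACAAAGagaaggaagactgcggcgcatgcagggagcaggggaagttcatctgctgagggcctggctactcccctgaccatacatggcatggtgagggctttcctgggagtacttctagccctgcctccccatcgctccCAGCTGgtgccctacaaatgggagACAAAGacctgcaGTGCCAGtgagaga
ACAAAG occurred 6 times in the Mobp promoter, each time as CTTTGT, and 2 times in that of Opalin. Of the 8 genes, 4 held ACAAAG, in 5 of their 10 promoters, against 18.7% of the 32851 promoters of all genes. CTGGNAC was likewise in 4 of the 8 genes and 5 of the 10 promoters, against 19.3% of all promoters. The 2 overlapping windows of Mag held the same sites of both motifs, which the counts of promoters therefore hold 2 times. CAGCTG was in 1 promoter, that of Opalin, against 16.3%. The promoters of Cldn11, Ermn and Mal held none of the 3 motifs in this window.

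Between 25052335 and 57430113 reads per brain library were counted on genes. The 20-month libraries had from 24939 to 28017 genes with at least 1 count, and the libraries of the 6-7 month cohort from 15044 to 24821. In 5 libraries of the latter, fewer than 17000 genes were detected, namely APPSWE vehicle libraries s140 and s146, APPSWE Cmpd60 library s141, littermate Cmpd60 library s152 and littermate vehicle library s155. The common biological coefficient of variation was 0.114 in the 20-month brains and 0.742 in the 6-7 month cohort. Library s139 is vehicle by its GEO labels and Cmpd60 by a column heading of a table of the study, and it was kept as vehicle, with the values of the other assignment given below. The mouse App gene was at 2269 ± 116 CPM in APPSWE vehicle brains (SD, n = 6) and 2166 ± 120 in littermate vehicle brains (SD, n = 5), with an adjusted p of 0.86, so that counts on this gene did not mark the human transgene. Neuron markers summed to between 6224 and 8234 CPM and astrocyte markers to between 4225 and 5562 CPM in every brain library. Of the markers of Schwann cells, which make peripheral myelin, Pmp2 had a mean of 0 CPM in every brain group, and the list of 4 summed to 12.9 to 43.9 CPM in all brain libraries but library s140, at 87.2 CPM.

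Levels are given as CPM, the counts of a gene relative to the counts of its library, on library sizes scaled by the TMM method over the 32 brain libraries. All 9 genes were detected in every brain library, over a wide range. To compare genes with each other, CPM was divided by the length of each gene's exons in the GENCODE vM1 annotation, which is not the authors' annotation. On this scale the median over 32 libraries was 369 CPM per kb for Mbp and 172 for Mobp, and neither range over libraries overlapped that of the next gene. Cnp at 97.4, Mag at 91.5, Mal at 85.9 and Cldn11 at 62.7 CPM per kb followed, each overlapping the next. Mog at 32.3, Ermn at 28.2 and Opalin at 6.33 CPM per kb were the lowest, and their ranges also overlapped each with the next. Opalin therefore rested on the fewest reads, with 6.54 to 34.4 CPM per library, and Mbp on the most, with 2476 to 3950 CPM.

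**Figure D1:**
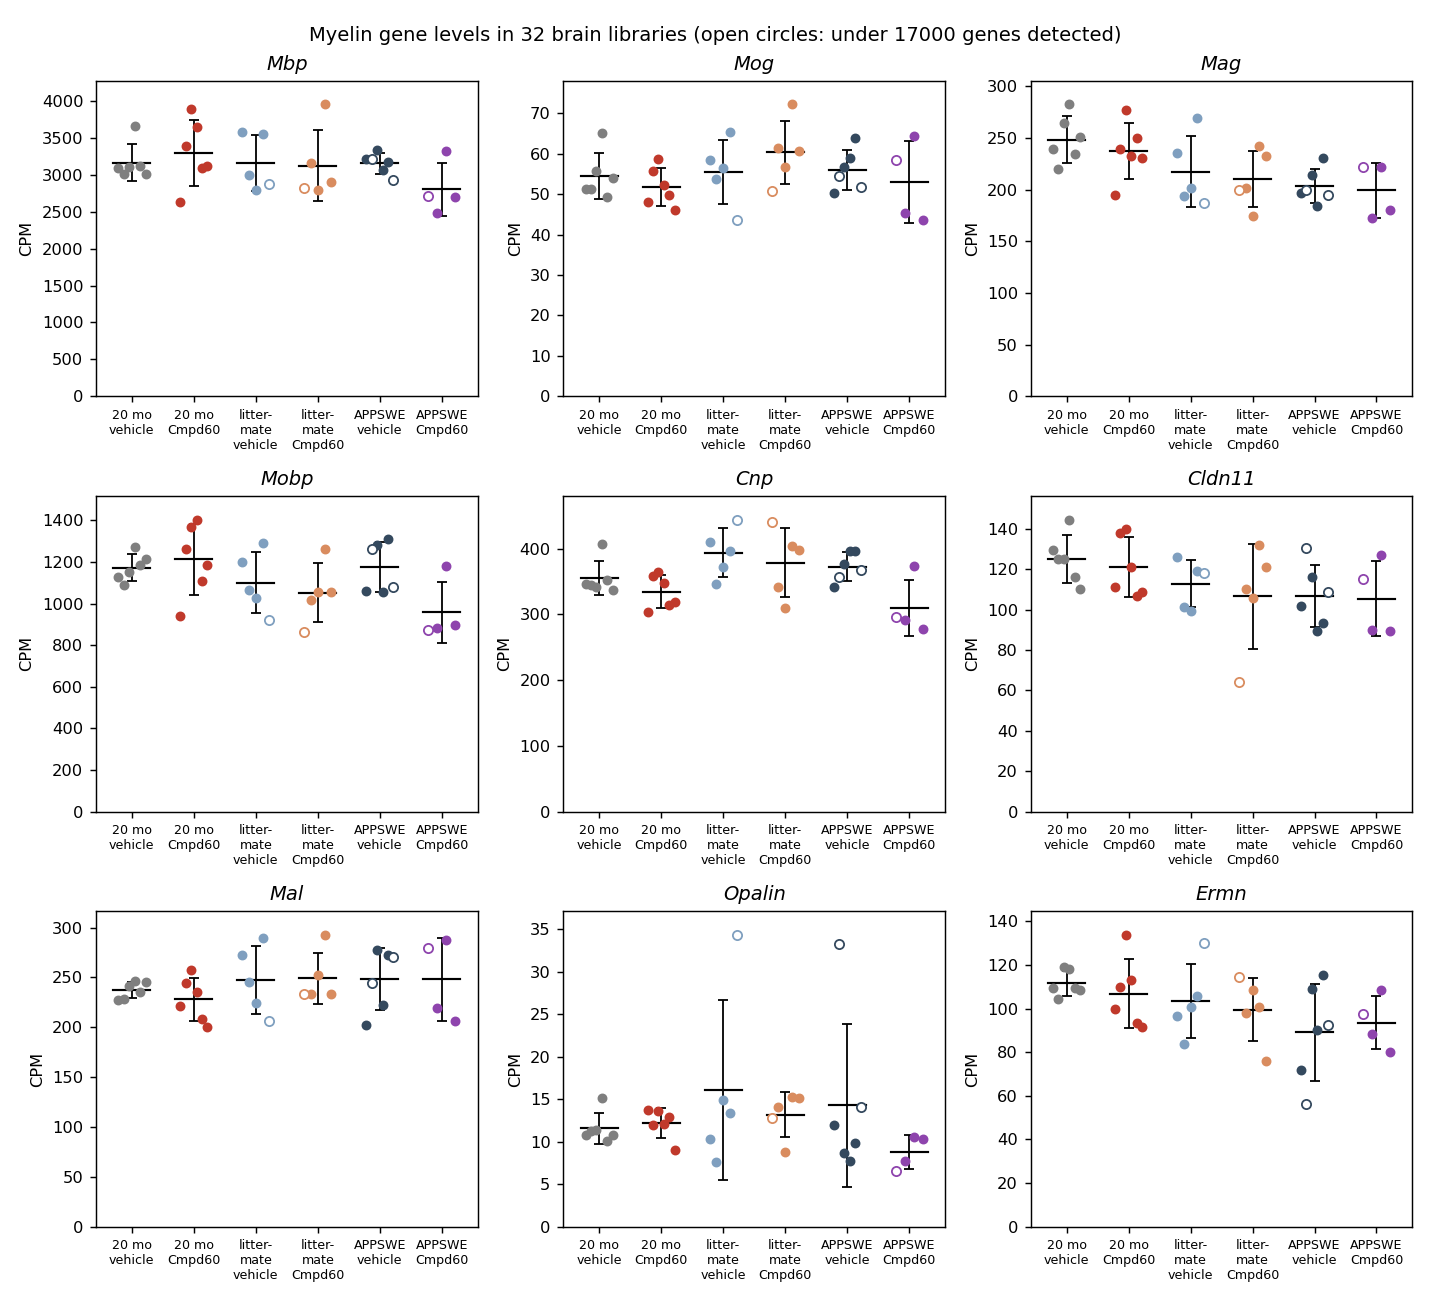
CPM of the 9 myelin genes (vertical axis, from 0) in the 6 groups of brain libraries (horizontal axis). Points are libraries, open where fewer than 17000 genes were detected, and bars give the mean ± SD. The groups compared overlap for each gene, and 2 Opalin values stand far above the rest, libraries s140 at 33.3 and s155 at 34.4 CPM.

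The first comparison asked whether Cmpd60 altered myelin gene RNA in the 20-month brain. Mbp was at 3161 ± 247 CPM in vehicle (SD, n = 6) and 3293 ± 447 CPM in Cmpd60 brains (SD, n = 6). It ranged from 3004 to 3656 CPM with a median of 3092 in vehicle brains, and from 2626 to 3888 with a median of 3253 in treated brains. The treated brains thus reached both below and above the vehicle brains. Cnp was at 355 ± 26.02 CPM in vehicle and 335 ± 25.7 CPM in treated brains, with medians of 346 and 333. Its treated values, 304 to 365 CPM, overlapped the vehicle values of 338 to 407. None of the 9 genes passed an adjusted p of 0.05 in edgeR's quasi-likelihood test, and none did in DESeq2 or limma-voom either. At an unadjusted p under 0.05 the count was also 0, against 13.8% of all 24438 genes tested, and the groups overlapped for all 9, against 0.933% of all genes free of overlap. After adjustment, 0.0205% of all genes were called.

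The log2 fold changes ran from -0.09 for Cnp (SE 0.059) to 0.07 for Opalin (SE 0.11), 6 of them negative. Their median was -0.06, beside 0.01 for all genes. Treated libraries had 25850 to 28017 genes detected and vehicle libraries 24939 to 25861, so that detection went largely with treatment. Reads counted on genes were 29646412 to 57430113 in treated and 26402957 to 32344641 in vehicle libraries. The part of this depth in the detection was not tested. With gene detection entered as a covariate, the members' median was 0.01, a fit that can hardly tell detection apart from treatment. The 95% intervals of the 8 genes other than Opalin all lay between 0.852-fold and 1.16-fold, and that of Opalin reached 1.23-fold. Mbp and Mobp were also on the positive side in this comparison, at 0.05 and 0.04, and the differences of all 9 genes were smaller than 2 standard errors. Without treated replicate 35, 1 of the 9 genes had an unadjusted p under 0.05.

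**Figure D2:**
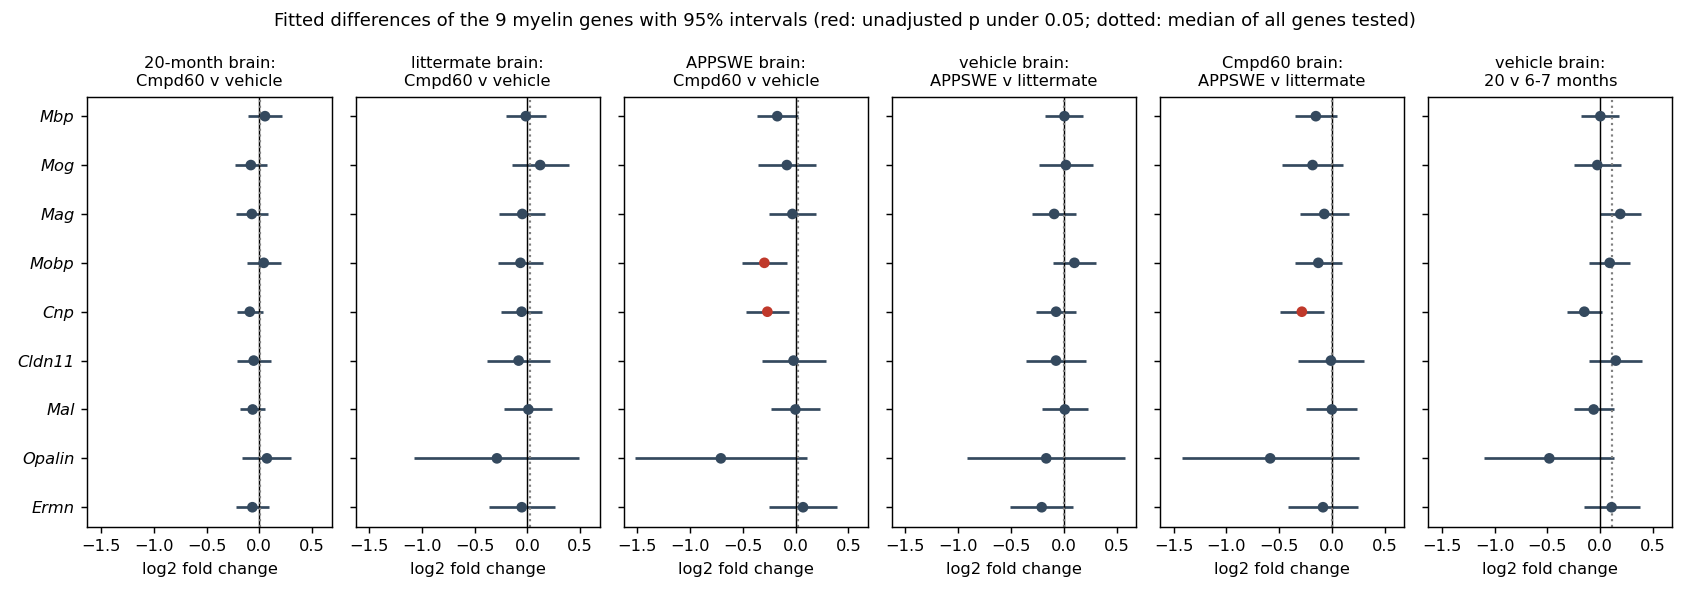
Fitted log2 fold change (horizontal axis) of each of the 9 myelin genes (vertical axis) in 6 comparisons, with 95% intervals. Red points have an unadjusted p under 0.05, Mobp and Cnp in treated against vehicle APPSWE brains and Cnp in treated APPSWE against treated littermate brains, and dotted lines mark the median of all genes tested. Intervals are narrowest in the 20-month brains and widest for Opalin in the 6-7 month cohort.

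Other genes of the oligodendrocyte lineage were read from 6 lists, of which 51 genes are reported, in the same fit. None passed adjustment in the 20-month brains. At an unadjusted p under 0.05, 6.47% of all genes were lower with Cmpd60 and 7.32% higher. Of the myelin proteins and junctions, those lower at this level included the plasmolipin gene Pllp at -0.15 (44.0 ± 3.46 against 48.6 ± 5.24 CPM, adjusted p = 0.36) and Omg at -0.12 (85.7 ± 4.79 against 93.03 ± 3.28 CPM, adjusted p = 0.29). Among 6 genes of myelin lipid synthesis, 2 were lower, the galactosylceramide synthase gene Ugt8a at -0.25 (adjusted p = 0.17) and the sulfotransferase gene Gal3st1 at -0.24 (adjusted p = 0.35). Among 17 other mature oligodendrocyte genes 3 were lower, Qdpr, Tmem88b and Ndrg1 at -0.21, -0.19 and -0.20, and 1 was higher, the apolipoprotein gene Apod at 0.27.

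Of 8 transcription factors of the lineage, Olig2 had the lowest log2 fold change, -0.32 (SE 0.084, adjusted p = 0.12). It was at 32.1 ± 5.01 CPM in treated and 40.1 ± 2.19 CPM in vehicle brains, and the groups did not overlap. The other 7 were also on the negative side, with a list median of -0.07. Of 6 genes of precursors and newly formed oligodendrocytes, Gpr17, which marks cells newly committed to the lineage, was at 31.4 ± 4.02 CPM in treated and 25.2 ± 1.61 CPM in vehicle brains (log2 fold change 0.31, adjusted p = 0.11). The precursor receptor gene Pdgfra was at -0.18 (adjusted p = 0.25). None of 6 inhibitors of oligodendrocyte differentiation had an unadjusted p under 0.05. Alongside these, all 6 cerebellar markers were lower in treated brains, 5 of them at an unadjusted p under 0.05, with a median log2 fold change of -0.49. Their sum was 349 to 845 CPM in treated and 676 to 1080 CPM in vehicle brains, and no marker had a mean of 0. All 5 markers of hindbrain and spinal cord were on the negative side (0 at that level, median -0.21), with sums of 29.3 to 74.5 CPM in treated and 35.2 to 82.8 CPM in vehicle brains. Of 8 neuron markers, 4 were higher and 2 lower at an unadjusted p under 0.05, from 0.28 for the glutamate transporter gene Slc17a7 to -0.23 for the tubulin gene Tubb3, with sums of 6520 to 7725 CPM in treated and 6224 to 7024 CPM in vehicle brains. The part of these differences in the values above was not tested.

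In APPSWE brains the question was whether Cmpd60 altered the same genes in the transgenic mice. Mobp was at 874, 880, 899 and 1179 CPM in the 4 treated brains. In the 6 vehicle brains it ranged from 1055 to 1308 CPM with a median of 1172. Of the treated brains 3 thus lay below all vehicle brains and 1, library s147, lay among them. Cnp was at 278, 292, 296 and 373 CPM in the treated brains, and at 342 to 396 CPM with a median of 372 in the vehicle brains. The order was the same, with 3 treated brains below the vehicle range and library s147 within it. The log2 fold change was -0.30 for Mobp (SE 0.11, unadjusted p = 0.0091, adjusted p = 0.41) and -0.27 for Cnp (SE 0.098, unadjusted p = 0.011, adjusted p = 0.41) in edgeR's quasi-likelihood test, so that neither passed adjustment.

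These were the 2 of 9 genes that were lower at an unadjusted p under 0.05, against 2.18% of all 23273 genes. Without treated library s148 the count was 1, and it was 3 in limma-voom and without any of libraries s144, s147 and s157. No gene of the 23273 passed adjustment in edgeR or limma-voom, and 14 did in DESeq2. All 9 genes overlapped between groups, against 1.33% of all genes free of overlap. Mbp was at 2476, 2695, 2705 and 3319 CPM in the treated brains and at 2931 to 3338 CPM in the vehicle brains (median 3189), a log2 fold change of -0.17 (SE 0.094, adjusted p = 0.65). The 3 treated brains below the vehicle range were again those other than library s147. Cldn11 was at -0.02 (SE 0.15), Mag at -0.03 (SE 0.11) and Mal at -0.002 (SE 0.11), and the median of the 9 was -0.08, beside 0.02 for all genes.

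Library s147 was the highest of the 4 treated APPSWE brains for all 9 genes. Without it, the value of Mobp was -0.41 and that of Cnp was -0.37. With library s139 counted as Cmpd60, Mobp was at -0.29 and Cnp at -0.26, and without that library they were at -0.32 and -0.29. Without the 5 libraries of low gene detection they were at -0.26 and -0.27, with adjusted p of 0.43 and 0.40. Genes detected also differed with treatment, at 16402, 22165, 23044 and 23402 in treated and 15555 to 20277 in vehicle APPSWE libraries. With genes detected as a covariate, Mobp was at -0.38 and Cnp at -0.23. The part of detection in these values was not tested. Opalin was at 6.54, 7.70, 10.4 and 10.5 CPM in the treated brains and at 7.77 to 33.3 CPM in the vehicle brains (median 10.9), a log2 fold change of -0.71 (SE 0.40). Its value rested on library s140, at 33.3 CPM. Without that library it was -0.26, and without the 5 libraries of low gene detection it was -0.01.

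Of the wider lineage in APPSWE brains, Apod was at 166 ± 24.4 CPM in treated and 242 ± 26.2 CPM in vehicle brains, with no overlap between the groups and a log2 fold change of -0.54 (SE 0.13, adjusted p = 0.41). Nkx6-2, a homeobox factor of mature oligodendrocytes, was at 11.8 ± 2.90 and 19.3 ± 4.38 CPM, also without overlap (-0.71, adjusted p = 0.41). Sox10 was at -0.46, Gal3st1 at -0.74, Cryab, a small heat shock protein gene, at -0.41 and Bcas1, a gene of newly formed oligodendrocytes, at -0.28, each with an unadjusted p under 0.05 and an adjusted p of at least 0.41. These 6 genes of 51 were lower and 0 were higher at that level, against 2.18% of all genes lower and 6.6% higher. Choroid plexus markers were lower in all 6 of their list in the treated brains, with a median of -0.64 and 2 of 6 at an unadjusted p under 0.05. Their sum was 363 to 565 CPM in treated and 396 to 1547 CPM in vehicle brains, and no marker had a mean of 0. Microglial markers were positive in 6 of 7 (median 0.20, 1 at that level) and those of hindbrain and spinal cord in 4 of 5 (median 0.39, 1 at that level). All 4 endothelial markers were positive (0 at that level). Of 7 astrocyte markers, 2 were higher at that level and 4 were on the negative side, and 1 of 8 neuron markers was lower at that level. The part of all these markers in the values above was not tested.

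In littermates, none of the 9 genes had an unadjusted p under 0.05 with Cmpd60, against 3.76% of all genes, and the groups overlapped for all 9, against 0.494% of all genes free of overlap. No gene passed adjustment in edgeR or limma-voom, and 8 did in DESeq2. Mbp was at 2789, 2871, 2999, 3544 and 3571 CPM in vehicle and at 2793, 2814, 2900, 3151 and 3950 CPM in treated brains. Mobp was at 920, 1026, 1065, 1200 and 1293 CPM in vehicle and at 865, 1019, 1055, 1057 and 1261 CPM in treated brains. The groups overlapped for both genes, and the highest Mbp value was in a treated brain. Cnp was at 394 ± 37.3 CPM in vehicle and 379 ± 52.6 CPM in treated brains. The log2 fold changes of Mbp, Mobp and Cnp were -0.02, -0.07 and -0.06. The 95% intervals of the 8 genes other than Opalin lay between 0.768-fold and 1.31-fold, and the median of the 9 was -0.05, beside 0.02 for all genes. None of the 51 other lineage genes had an unadjusted p under 0.05. All 7 astrocyte markers were on the positive side (3 at that level, median 0.08) and all 7 striatal markers on the negative side (1 at that level, median -0.25), and their part in these values was not tested.

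The response to Cmpd60 was compared directly between genotypes by an interaction term. It was -0.23 (SE 0.15) for Mobp, -0.21 (SE 0.14) for Cnp and -0.16 (SE 0.13) for Mbp, with adjusted p of 1. None of the 9 genes had an unadjusted p under 0.05, against 4.8% of all genes, and 0 genes passed adjustment in edgeR or limma-voom and 9 in DESeq2. The members' count of 0 was 2 without library s147, 1 without library s156 and 1 in limma-voom. A difference of response between APPSWE and littermate brains was therefore not shown for Mobp or Cnp, and their 95% intervals ran from -0.53 to 0.07 and from -0.49 to 0.07. Of the other lineage genes, Apod had an interaction of -0.65 (SE 0.19, unadjusted p = 0.0016, adjusted p = 0.95). All 6 choroid plexus markers had a negative interaction (median -0.76, 1 at an unadjusted p under 0.05), and all 7 microglial and all 7 striatal markers a positive one (medians 0.39 and 0.30, 1 at that level in each), and their part in these values was not tested. The response was also compared between 20-month brains and littermates, and the 9 genes had a median difference of -0.0009, adjusted p that rounded to 1 and 0 at an unadjusted p under 0.05, against 4.88% of all genes, of which 0.00387% passed adjustment. All 6 cerebellar markers were on the negative side of that difference (median -0.57, 2 at that level) and all 7 striatal markers on the positive side (median 0.31, 1 at that level), and their part was not tested.

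Genotype was compared within each treatment, and the comparisons share groups with those of treatment. In vehicle brains, Mbp was at 3154 ± 141 CPM in APPSWE (SD, n = 6) and 3155 ± 375 CPM in littermate brains (SD, n = 5). None of the 9 genes had an unadjusted p under 0.05, against 8.35% of all genes, and 0.00859% of all genes passed adjustment. The groups overlapped for all 9, against 0.37% of all genes free of overlap. Mobp was at 0.10 (SE 0.098), Cnp at -0.07 (SE 0.091) and Ermn at -0.21 (SE 0.15), and the median of the 9 was -0.07, beside 0.00 for all genes. With library s139 counted as Cmpd60, Mobp was at 0.13 and Cnp at -0.05. Opalin, at -0.17 (SE 0.36), moved to -0.62 without APPSWE library s140 and to 0.32 without littermate library s155. Ermn ran from -0.30 without library s145 to -0.11 without library s155. Without the 5 libraries of low gene detection, Ermn was at -0.003. Apod was at 0.38 (adjusted p = 0.47) and Myrf, the myelin regulatory factor, at -0.42 (adjusted p = 0.48). Trf, the transferrin gene, had an unadjusted p under 0.05, but its symbol matched 2 Ensembl genes and it had means of 1.14 and 0.0501 CPM, so that its value is uncertain. All 7 striatal markers were on the negative side (median -0.15), with sums of 555 to 790 CPM in APPSWE and 566 to 1052 CPM in littermate brains, and their part in these values was not tested.

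In treated brains, all 9 genes were on the negative side in APPSWE relative to littermate brains, from -0.58 for Opalin to -0.0007 for Mal, with a median of -0.13, beside -0.0012 for all genes. Mal was at 0.08 without library s148, and Cldn11, at -0.009, was at 0.07 without library s157. The genes varied together within libraries, so their signs are not independent. Cnp was at 310 ± 42.8 CPM in APPSWE (SD, n = 4) and 379 ± 52.6 CPM in littermate brains (SD, n = 5). In the 5 littermate brains it was at 309, 342, 398, 404 and 441 CPM, and APPSWE library s147, at 373 CPM, was the only treated APPSWE brain above the lowest of these. Its log2 fold change was -0.28 (SE 0.10, unadjusted p = 0.0091, adjusted p = 1). It was the 1 of 9 genes lower at that level, against 0.872% of all genes, and 0 genes passed adjustment in edgeR, DESeq2 or limma-voom. All 9 overlapped between groups, against 0.889% of all genes free of overlap. The count of 1 was 3 without library s147 and 2 in limma-voom and in a fit of these 2 groups alone. With library s139 counted as Cmpd60 the median was -0.11. All 6 choroid plexus markers were on the negative side (median -0.56, 1 at an unadjusted p under 0.05), with sums of 363 to 565 CPM in APPSWE and 542 to 1003 CPM in littermate brains. The erythrocyte markers other than Hbb-bs and Hbb-bt, which matched no gene counted, summed to 52.3 to 125 CPM and 140 to 479 CPM, without overlap. Of these 3 markers, 2 were lower at that level. All 7 striatal and all 6 cerebellar markers were on the positive side (medians 0.15 and 0.14, 0 at that level). The part of these markers in the values above was not tested.

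Vehicle brains of 20-month mice were set against those of littermates aged 6 to 7 months. Age cannot be told apart from the cohort here, since the cohorts were separate sets of mice and libraries and differed in genes detected. The median log2 fold change of all genes was 0.11, and values are read beside that shift. The 9 genes had a median of 0.00, with 5 positive and 4 negative values. Mbp was at 3161 ± 247 and 3155 ± 375 CPM, a log2 fold change of 0.00 with a 95% interval from -0.18 to 0.18. None of the 9 passed adjustment, against 3.2% of all 25868 genes, or had an unadjusted p under 0.05, against 18.9% of all genes. The second count was 2 without littermate library s150, and 1 in limma-voom, with DESeq2 size factors, with no filter and without any of replicates 28, 30 and 31 and libraries s149 and s154. The groups overlapped for all 9, against 8.37% of all genes free of overlap. Mag, at 248.6 ± 22.6 CPM at 20 months and 218 ± 34.6 CPM in littermates, had the smallest p (log2 fold change 0.19, SE 0.097, adjusted p = 0.28). Cnp was at -0.15 (SE 0.082, adjusted p = 0.33). The 95% intervals of the 8 genes other than Opalin lay between 0.804-fold and 1.32-fold. Opalin was at -0.48 (SE 0.30), and at 0.00 without littermate library s155.

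In the same fit, 6 of the 51 other lineage genes passed adjustment, 5 higher and 1 lower at 20 months, against 3.2% of all genes. At an unadjusted p under 0.05, 17 were higher and 2 lower, against 18.9% of all genes in either direction. The shares of all genes by direction are not given here, so neither split can be set against all genes. The median log2 fold change of all genes was 0.11 in this fit. Among junction proteins the connexin gene Gjc3 was higher in the 20-month brains by 0.56 on the log2 scale (SE 0.13, adjusted p = 0.0076). It was at 75.2 ± 6.83 CPM at 20 months and 50.9 ± 9.72 CPM in littermates, without overlap. Gjb1, another connexin gene, was at 0.52 (adjusted p = 0.086). The oligodendrocyte myelin glycoprotein gene Omg was lower, at -0.32 (adjusted p = 0.049). Of the transcription factors, Olig1 was higher by 0.55 (117 ± 10.8 against 80.0 ± 17.5 CPM, adjusted p = 0.0044) and Olig2 by 0.64 (40.1 ± 2.19 against 25.7 ± 5.76 CPM, adjusted p = 0.036), both without overlap between the groups. Nkx6-2 and Tcf7l2 were at 0.51 and 0.47 with adjusted p of 0.093 and 0.21.

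Among other mature oligodendrocyte genes, Apod was higher in the 20-month brains by 0.67 (297 ± 38.3 against 187 ± 24.2 CPM, adjusted p = 0.0016), without overlap. Hapln2, a link protein of the node of Ranvier, was higher by 0.67 (54.3 ± 5.32 against 34.2 ± 10.1 CPM, adjusted p = 0.0056) and is named after its value was seen. Qdpr and Plekhb1 were at 0.26 and 0.25 with adjusted p of 0.14 and 0.17. The aspartoacylase gene Aspa was at 0.37, Gpr17 at -0.42, and the inhibitors Id2 and Id4 at 0.27 and 0.21, with adjusted p from 0.12 to 0.24. Other markers also passed adjustment in this comparison, the astrocyte genes Aqp4 and Gja1, 1 of them higher and 1 lower, and the neuron gene Nefl, which was lower. All 7 striatal markers were lower with a median of -0.31. The part of these movements in the values above was not tested. Genes detected did not overlap between the vehicle groups, at 24939 to 25861 in 20-month and 15044 to 23151 in littermate libraries. A fit with genes detected as a covariate therefore cannot tell detection apart from age and cohort. In that fit, Gjc3, Apod and Olig2 had an adjusted p under 0.05. Hapln2 was at 0.54 (adjusted p = 0.076), Olig1 at 0.46 (adjusted p = 0.059) and Omg at -0.38 (adjusted p = 0.074). Without littermate library s155, Olig2 was at 0.53 (adjusted p = 0.12) and Omg at -0.20 (adjusted p = 0.25). Leaving out 1 of the 11 libraries at a time ended the call of Omg in 9 cases and of Olig2 in 8, while those of Gjc3, Apod, Hapln2 and Olig1 were lost in 0.

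**Figure D3:**
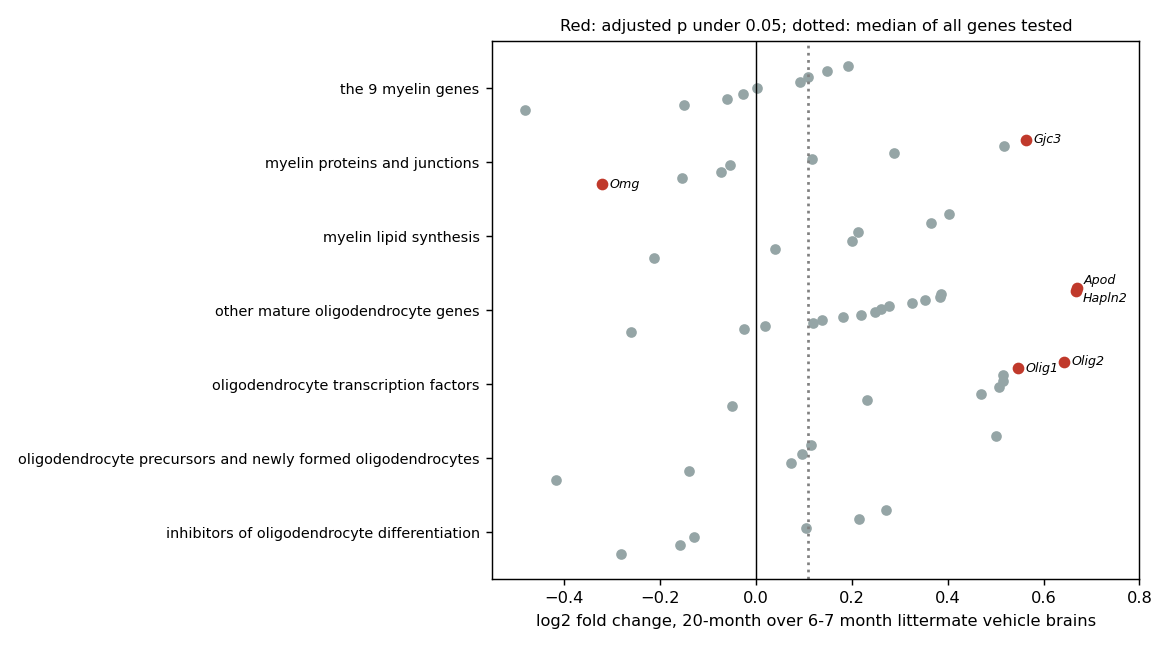
Log2 fold change of vehicle brains at 20 months over littermate vehicle brains at 6 to 7 months (horizontal axis) for the 9 myelin genes and the 51 reported genes of 6 lists other than Trf (vertical axis, 1 point a gene). Red points have an adjusted p under 0.05 and are named, and the dotted line is the median of all genes, 0.11. The 9 myelin genes hold no red point and the lists hold 6.

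Within groups, the 9 genes varied together from library to library. Deviations of log2 CPM from the group mean were compared for each of the 36 pairs of genes, as a description over libraries that share the total each level is scaled to. Over the 12 libraries of 20-month brains all 36 pairs were positive, with r from 0.04 for Mobp and Opalin to 0.92 for Mbp and Mobp and for Mal and Ermn, and a median of 0.70. Mog followed the mean of the other 8 genes most closely (r = 0.92) and Opalin least (r = 0.49). In vehicle brains, replicate 30 was the highest of 6 for 8 of the 9 genes. In treated brains, replicate 35 was the highest of 6 for 7 genes, while replicates 33 and 38 were the lowest for 4 genes each.

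Over the 20 libraries of the 6-7 month cohort, 30 of 36 pairs were positive, from -0.27 to 0.81 with a median of 0.34. Mbp, Mog, Mag, Mobp and Mal each had r between 0.73 and 0.79 with the mean of the other 8, whereas Ermn had 0.12 and Opalin -0.03. Without the 5 libraries of low gene detection, 34 of 36 pairs were positive and the median was 0.70, as in the 20-month brains, and r was 0.80 for Cnp, 0.48 for Ermn and 0.30 for Opalin. The within-group SD of log2 CPM was 0.63 for Opalin over the 20 libraries and 0.35 over the other 15, and 0.22 in the 20-month brains. For Mbp it was 0.16, 0.18 and 0.16 in the same order. The spread of Opalin was thus smaller without the libraries of low gene detection, while that of Mbp was not. Library s140 held the highest Opalin value of its group, at 33.3 CPM, together with the lowest Ermn value, at 56.1 CPM. Library s155 held the highest of both, at 34.4 and 130 CPM. Library s152 held the lowest Cldn11 value of all, at 64.1 CPM.

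**Figure D4:**
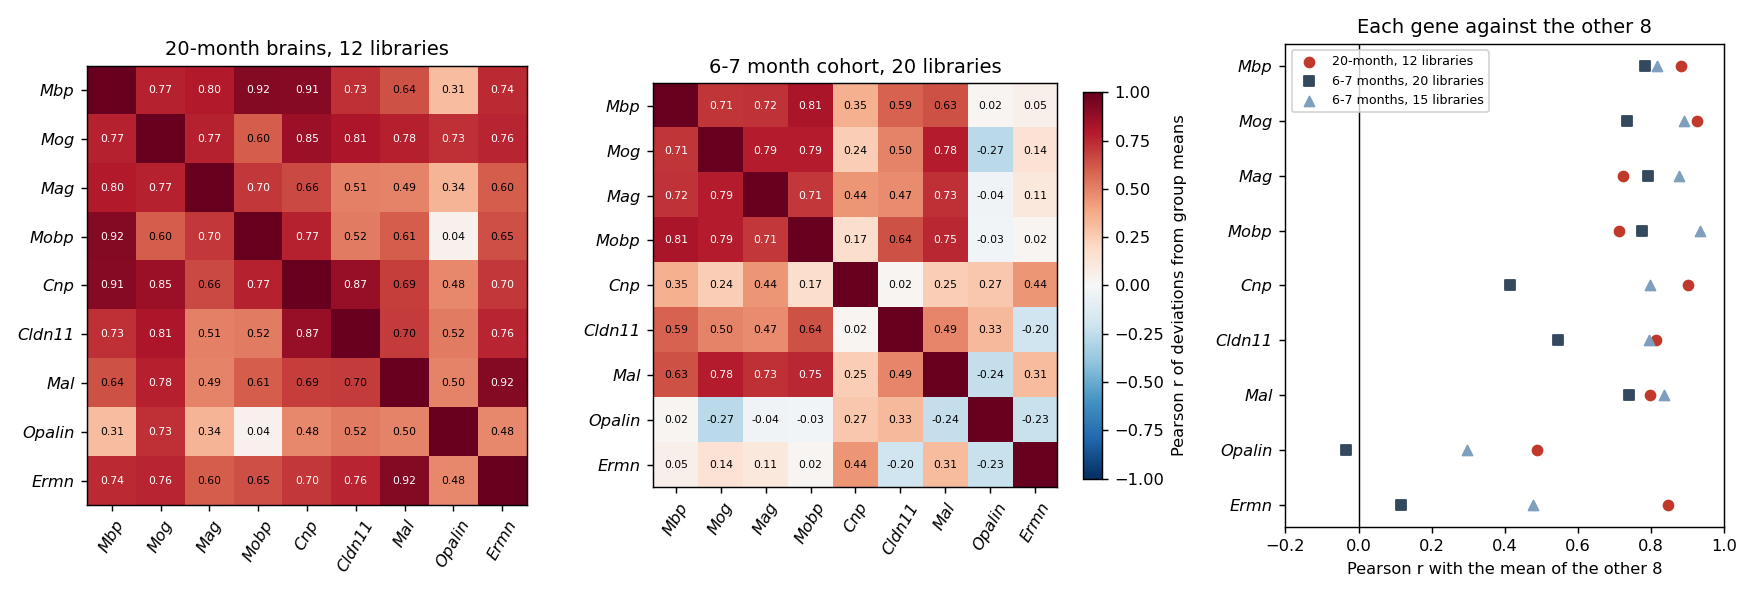
Left and centre, Pearson r between deviations of log2 CPM from the group mean for each pair of the 9 genes (both axes), in 12 libraries of 20-month brains and 20 of the 6-7 month cohort. Right, r of each gene (vertical axis) with the mean of the other 8, also over the 15 libraries with at least 17000 genes detected, where the value of Cnp moved from 0.41 to 0.80.

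**Figure D5:**
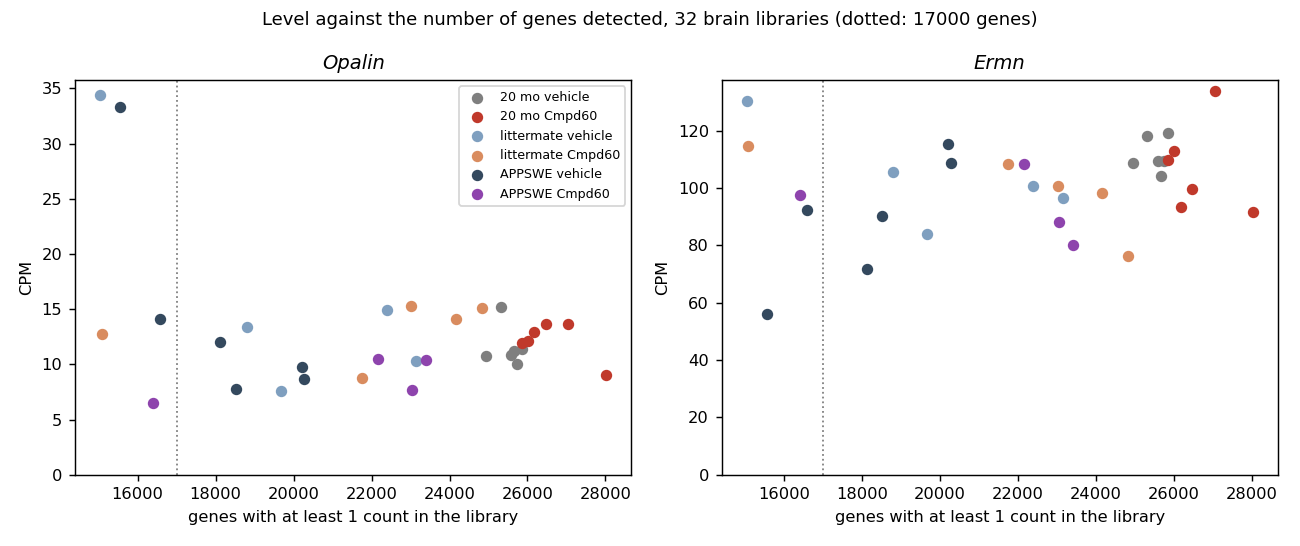
CPM of Opalin and Ermn (vertical axes, from 0) against genes detected, those with 1 count or more (horizontal axis) in 32 brain libraries, coloured by group. The 2 Opalin values above 30 CPM and the lowest Ermn value lie left of the dotted line at 17000 genes.

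Genes were ranked by how closely they followed the 9 in both cohorts, as the lower of the r of the 12 and of the 20 libraries, over 14806 genes with a mean of at least 1 CPM. The 4 genes highest in this order were Ndrg1 (0.73), Qdpr (0.71), the ferritin heavy chain gene Fth1 (0.69) and the tubulin-binding protein gene Tppp3 (0.66). Ndrg1 and Qdpr were in the lists of oligodendrocyte genes already described. Of the transcription factors, Olig1 was at rank 34 and Olig2 at rank 2763, with an r of 0.44 at 20 months and 0.10 in the younger cohort. Sox10 had an r of 0.78 in the 20-month brains and -0.10 in the 6-7 month cohort. The 20 libraries include those of low gene detection, and r without these was not computed for the transcription factors. Between the 9 genes themselves, the median r of that cohort was 0.34 with these libraries and 0.70 without them.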

How the data were processed

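Brain RNA was converted to directional, oligo-dT selected libraries and sequenced on a NovaSeq instrument. Per the labels and the study's methods, the authors trimmed reads (Trimmomatic 0.32), aligned them (HISAT2 2.1.0) and counted them per Ensembl gene with HTSeq 0.11.0, and the deposited files hold these raw counts, with 5 HTSeq summary lines that took 15.4 to 21.9% of each brain file and were left out. Reads shared by overlapping genes are lost in such counting. The authors re-annotated genes from Ensembl with biomaRt. The genome build and the annotation used for counting are not given in the sources used here.

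Gene symbols came from a table of Ensembl identifiers, and all 9 genes matched. Groups followed the GEO labels, which describe the 20-month mice in the protocol text of every sample. A gene entered a fit when its count exceeded 2 in 3 or more libraries, and was tested with edgeR 4.0.16 (R 4.3.3, TMM scaling, quasi-likelihood test, Benjamini-Hochberg adjustment over all genes tested). The 20-month brains were fitted alone, the 20 libraries of the 6-7 month cohort together, and comparisons of age over all 32 libraries. DESeq2 1.42.0, limma-voom (limma 3.58.1), other filters and scalings, a covariate of genes detected, the other assignment of library s139 and leaving out each library were alternatives; the covariate for age and leaving out the 5 libraries of low gene detection were added after seeing the data. Log2 CPM used a prior count of 2. The script was tested on simulated data. The 9 genes and the lists were chosen with earlier results of these data known. In each comparison, list genes were named where they had an unadjusted p under 0.05, up to the 2 highest and the 2 lowest of a list, together with the 4 genes most like the members. Some genes of these lists are not reported here, and counts over the lists leave them out. Kidney and heart files were used for levels only, since kidney labels disagree on treatment.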

Additional observations from a re-analysis of the deposited data

Results flagged for a closer look

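A test for single values far from the rest of their group of 4 to 6 libraries marked 6 of the 54 sets of 1 gene in 1 brain group. Chance marks about 1 in 20 of independent sets. The genes varied together within libraries, so these sets are not independent and the count cannot be set against that share. In 20-month vehicle brains, replicate 30 stood apart for Cnp at 407.1 CPM, Mbp at 3656 CPM and Opalin at 15.16 CPM. In APPSWE Cmpd60 brains, library s147 stood apart for Mobp at 1179 CPM, where the other 3 were between 874.4 and 899.1 CPM. Opalin stood apart in library s140 of the APPSWE vehicle brains, at 33.28 CPM against 7.773 to 14.15 CPM, and in library s155 of the littermate vehicle brains, at 34.39 CPM against 7.617 to 14.93 CPM. Both of these libraries had fewer than 17000 genes detected, and the part of that in the Opalin values was not tested.

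Outside the brain comparisons, 5 of the 9 genes had more than 3 counts, the limit that a count of 0 allows, in all 11 kidney libraries and 3 in all 11 heart libraries, both from 20-month mice. Levels in this paragraph were scaled by the TMM method over brain, kidney and heart libraries together, not over the 32 brain libraries alone. On that scale the brain median of Mal was 216.6 CPM. Mal, which also serves apical transport in kidney epithelium, had a median of 307.8 CPM in kidney (264.2 to 383.8) and 43.57 CPM in heart (37.7 to 56.78). In kidney the medians were 22.28 CPM for Mbp, 13.07 CPM for Cnp, 1.119 CPM for Cldn11 and 0.352 CPM for Mag, and in heart 10.9 CPM for Mbp and 15.51 CPM for Cnp. In heart, Mag and Cldn11 passed that limit in 6 and 7 of the 11 libraries, with medians of 0.2215 and 0.1846 CPM.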

How the results depend on the processing

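In each of the 8 comparisons, 0 of the 9 myelin genes had an adjusted p under 0.05 under every alternative run. Leaving out 1 library moved the median of the 9 genes in the interaction from -0.16 to between -0.25 (without library s147) and -0.012 (without library s140). For Cmpd60 in APPSWE brains it moved from -0.08 to between -0.19 (without s147) and -0.0005 (without s148), in littermates from -0.05 to between -0.11 (without s157) and 0.002 (without s156), and in 20-month brains from -0.06 to between -0.10 (without replicate 35) and -0.02 (without replicate 30). For genotype it moved from -0.13 to between -0.24 (without s147) and -0.06 (without s157) in treated brains, and from -0.07 to between -0.12 (without s150) and -0.008 (without s154) in vehicle brains. For age it ran from -0.04 (without replicate 30) to 0.05 (without s154), and for the difference of response with age from -0.05 (without replicate 35) to 0.07 (without s150). Counts of all genes past adjustment depended on the tool. In 20-month brains they were 5 in edgeR, 2 in limma-voom, 429 in DESeq2, 102 with no filter and 0 with the covariate of genes detected, and 1 to 372 when 1 library was left out. For Cmpd60 in APPSWE brains 0 became 14 in DESeq2 and 9 with no filter, in littermates 0 became 8 and 2, and for the interaction 0 became 9 and 2. For genotype in vehicle brains 2 became 28 in DESeq2 and 8 without the 5 libraries of low gene detection, which gave 2 in place of 0 in treated brains. For age, 829 became 1316 in DESeq2, 1483 in limma-voom, 1552 with the 2 groups alone and 2599 without those 5 libraries, and 490 (without replicate 29 or library s155) to 865 when 1 library was left out, and the median of all genes ran from -0.11 to 0.28. For the difference of response with age, 1 became 8 in DESeq2 and 0 in limma-voom. The causes were not tested. No paired analysis was possible because the groups compared share no replicate numbers. Opalin, with the fewest reads, had the widest intervals.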
